A study of Mus musculus with 4 samples.

Results

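In antibody class switching and somatic hypermutation, 7 genes that act after the deaminase were followed: Ung, Apex1, Apex2, Msh6, Pms2, Exo1 and Trp53bp1. They were found by gene symbol in the deposited table of gene counts, and all 7 were present among its 41342 rows that carry a gene name. All 7 also averaged 50 counts or more per library, the minimum for testing, which 11286 genes reached.

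RNA of CD43-depleted spleen cells was sequenced in 4 libraries, 1 per group. The mice carried either of 2 changes to the 3' regulatory region of the heavy-chain locus (3'RR), an array of enhancers downstream of the constant genes, on a 129 background. ΔleftPAL mice lacked the hs3a and hs1,2 enhancers and the left copy of the inverted repeats (IRIS) of the palindrome, whereas ΔIRIS mice kept every enhancer, with hs3a inverted, and lacked that left copy. The right copy remained in both. For each genotype, 1 library held resting cells and 1 held cells after 48 h of culture with 5 μg per ml lipopolysaccharide (LPS), a bacterial product that activates B cells. The labels give each library as a pool of B cells from 4 animals, and the methods describe the pooling of RNA differently. The wt libraries were not analysed here, so every group carried a changed 3'RR. LPS and time in culture cannot be told apart, since the resting cells were not cultured.

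Switching and hypermutation start when a deaminase turns cytosine into uracil in immunoglobulin genes of activated B cells. The uracil is then either excised as a base, by the uracil glycosylase UNG followed by an endonuclease that cuts the abasic site (APEX1 or APEX2), or seen as a mismatch by the complex that contains MSH6, after which PMS2 nicks the strand and EXO1 resects it. The strand breaks that result in switch regions are joined to each other with the help of 53BP1 (Trp53bp1), which shields the ends from resection.

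The gene counts summed to between 23615496 and 29776108 per library, and 3 counts, the smallest level taken as shown, corresponded to between 0.101 and 0.127 CPM of these totals. All other CPM values are relative to the effective (TMM) library size. The 6 B-cell markers were above that floor in every library, with summed levels from 2303 to 3855 CPM. Markers of other cells moved with LPS. The 7 T- and NK-cell markers summed to 24.1 and 26.7 CPM at rest and were all at or under the floor after LPS, the 6 myeloid markers went from 288.4 and 385.6 CPM to 6.79 and 16.0 CPM, and the 4 erythroid markers went from 3.83% and 2.63% of counts to 0.00517% and 0.0110%. In each of these pairs of values ΔleftPAL comes first. The 6 germinal-centre markers summed to 81.6 CPM in resting ΔleftPAL cells and to 41.8 to 48.3 CPM in the other libraries. The part of these cells in the LPS changes given here was not tested, and fewer cells of a type cannot be told apart from less RNA per cell.

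Each LPS ratio within a genotype compares 1 library with 1 library. It is given as a log2 ratio of CPM with an exact 95% Clopper-Pearson interval whose width reflects counting alone, and copies made by PCR are not separate molecules. The tested value is the LPS term of an additive model of LPS and genotype over the 4 libraries (edgeR's quasi-likelihood test with Benjamini-Hochberg adjustment over all genes tested), so that the libraries of unlike genotype stand in for replicates and the spread is the difference between the genotypes in their LPS change, with 1 residual degree of freedom, moderated across genes.

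Per length, the 7 genes spanned a wide range at rest. On the scale of TPM, which kallisto scales to transcript length, summed per gene, Apex1 was highest, at 48.4 TPM in ΔleftPAL and 55.5 TPM in ΔIRIS cells. Trp53bp1 followed with 25.1 and 21.0 TPM, then Pms2 with 17.6 and 20.3 TPM and Msh6 with 16.7 and 19.6 TPM. The levels of Pms2 and Msh6 overlapped between the libraries of the genotypes, so their order was not resolved. Ung stood at 5.41 and 7.50 TPM, Apex2 at 4.62 and 4.48 TPM and Exo1 at 1.80 and 3.04 TPM. After LPS, Apex1 was still highest, with 122.5 TPM in ΔleftPAL and 133.4 TPM in ΔIRIS cells. Exo1 had moved from the lowest place to the next, with 37.3 and 47.2 TPM, just above Msh6 with 36.1 and 35.3 TPM. Its longest transcript, Exo1-201, held only 5.50 and 6.49 TPM of these sums, and shorter transcripts held the rest. Pms2 (22.7 and 24.4 TPM) came next, and Trp53bp1 (17.1 and 15.0 TPM) overlapped Ung (15.5 and 14.9 TPM). Apex2 was then lowest, with 5.78 and 5.87 TPM. The order depends on the length used. With gene counts per kilobase of merged exons (FPKM), Msh6 at 32.4 and 32.7 FPKM stood above Exo1 at 9.69 and 11.7 FPKM after LPS. Ung (10.3 and 10.1 FPKM) then stood above Trp53bp1 (3.29 and 3.03 FPKM). At rest, Msh6 (12.1 and 14.3 FPKM) came next after Apex1, above Trp53bp1 (3.97 and 3.60 FPKM).

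**Figure D1:**
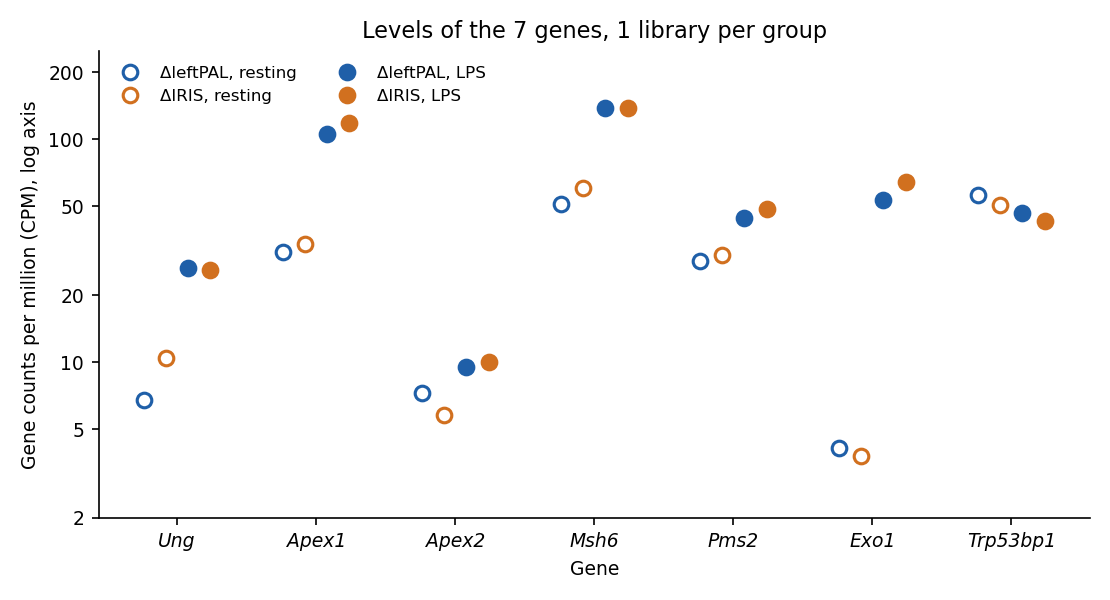
Levels of the 7 genes in CPM (log axis) in each of the 4 libraries, with open points for resting cells, filled points for LPS-activated cells, blue for ΔleftPAL and orange for ΔIRIS. The LPS points of Exo1 lie furthest above its resting points, and those of Trp53bp1 lie below its resting points.

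Ung encodes the uracil glycosylase that takes the uracil base out of DNA, and its RNA was higher after LPS in both genotypes. The gene lies at chr5:114130386-114139323 on the plus strand (mm10, the build of all coordinates here). Its counts in ΔleftPAL cells were 165 at rest and 714 after LPS, and those in ΔIRIS cells were 305 and 762. In CPM these were 6.76, 26.5, 10.5 and 26.0 in the same order. The LPS libraries were thus nearly level, whereas the resting libraries stood apart. The LPS log2 ratio was 1.97 (interval 1.73 to 2.23, 3.92-fold) in ΔleftPAL and 1.31 (1.12 to 1.51, 2.48-fold) in ΔIRIS cells. The fitted LPS change was 1.63 (SE 0.21), which passed edgeR's quasi-likelihood test (Benjamini-Hochberg adjusted p = 0.00174).

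Ung is read from separate starts that give proteins with different beginnings, a nuclear form and a mitochondrial form, which share the catalytic part. The coding sequence of Ung-201, whose first coding exon is chr5:114130503-114130625, has 306 codons, and that of Ung-202, with its first coding exon at chr5:114131229-114131513, has 295. The last 796 coding bases are identical. The beginnings are printed here because reads over them are what tells the forms apart. Capitals mark the stretch before the coding sequence becomes identical in both, and the first 30 identical bases follow in lower case (GENCODE M21 transcripts, GRCm38).
Ung-201: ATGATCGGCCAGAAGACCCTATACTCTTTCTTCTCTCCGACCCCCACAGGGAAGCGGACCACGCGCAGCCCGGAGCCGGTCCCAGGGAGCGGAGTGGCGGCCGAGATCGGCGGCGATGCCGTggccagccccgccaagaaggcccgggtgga
Ung-202: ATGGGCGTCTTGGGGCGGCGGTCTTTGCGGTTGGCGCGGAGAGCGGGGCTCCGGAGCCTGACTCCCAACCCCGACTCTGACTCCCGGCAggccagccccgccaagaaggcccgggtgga

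By kallisto's estimates the form with the upstream start had the larger LPS ratio. Ung-201 went from 54.7 estimated counts at rest to 355.0 after LPS in ΔleftPAL cells, and from 81.3 to 418.3 in ΔIRIS cells, which is 6.38-fold and 5.70-fold higher after LPS. Ung-202 had 64.7 and 256.5 estimated counts in ΔleftPAL and 146.4 and 261.2 in ΔIRIS cells, 3.90-fold and 1.98-fold higher. The share of Ung-201 in the summed TPM of both was 47.8% at rest and 60.0% after LPS in ΔleftPAL cells. In ΔIRIS cells it was 37.6% and 63.5%. Both LPS libraries thus had a larger share of the 306-codon form than both resting libraries. The remaining coding transcript shown, Ung-203, whose annotated start lies further downstream, held 43.2, 100.5, 88.7 and 78.6 estimated counts in the order ΔleftPAL resting, ΔleftPAL LPS, ΔIRIS resting, ΔIRIS LPS. It did not move one way in the genotypes. The resting difference between the genotypes was carried by Ung-202 and Ung-203 more than by Ung-201. These are estimates from shared exons in 1 library each, with no interval.

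**Figure D2:**
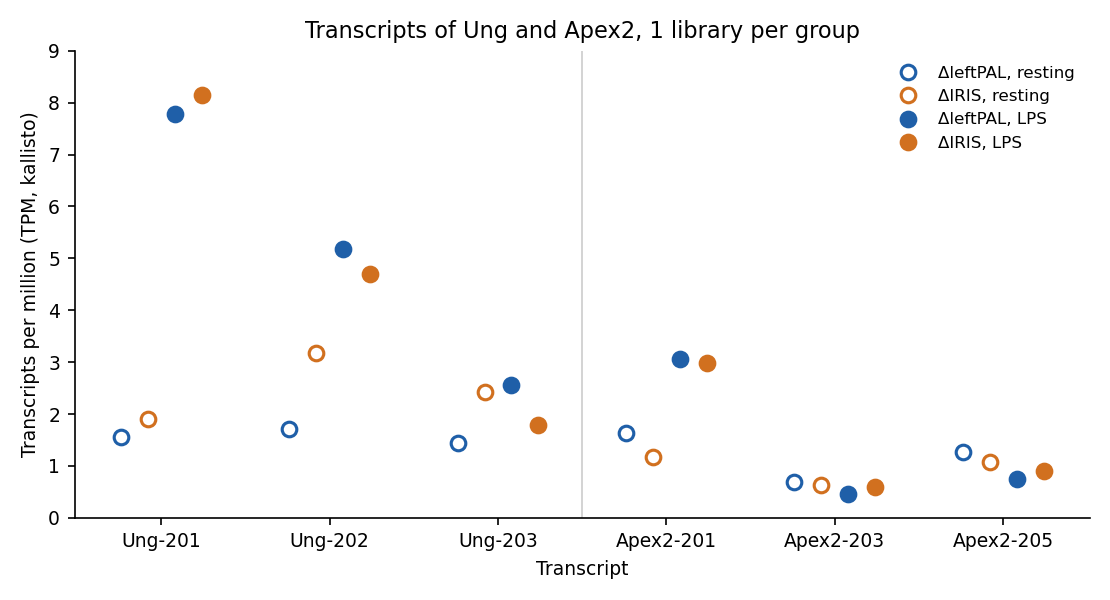
TPM of 3 transcripts of Ung and 3 of Apex2 in each of the 4 libraries, with open points for resting cells, filled points for LPS-activated cells, blue for ΔleftPAL and orange for ΔIRIS. Ung-201, Ung-202 and Apex2-201 are higher in both LPS libraries than in both resting libraries, and Apex2-203 and Apex2-205 are lower.

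Apex1 and Apex2 encode the endonucleases that can cut at the abasic site UNG leaves, APEX1 being the main such enzyme of most cells. Apex1 rose in both genotypes by nearly the same amount, and Apex2 did not pass the test. Apex1 lies at chr14:50924968-50927139 on the plus strand. In ΔleftPAL cells it had 765 counts at rest and 2859 after LPS, and in ΔIRIS cells 991 and 3487, or 31.3, 106.1, 34.1 and 119.0 CPM. The LPS libraries do not overlap the resting ones, and the genotypes lie close together in each condition. The LPS log2 ratio was 1.76 (1.64 to 1.88, 3.39-fold) in ΔleftPAL and 1.80 (1.70 to 1.91, 3.49-fold) in ΔIRIS cells. The fitted change was 1.78 (SE 0.12, edgeR's quasi-likelihood test, Benjamini-Hochberg adjusted p = 0.00031). The full-length coding transcript, Apex1-201, carried 658 estimated counts at rest and 2558 after LPS in ΔleftPAL cells, and 833 and 3179 in ΔIRIS cells. The opposite strand holds Pip4p1, which overlaps 2 of the 4 merged exons of Apex1, and the counting used strand.

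The RefSeq promoter window of Apex1, 250 bases before to 50 bases after the annotated start, is shown for its motif content (chr14:50924699-50924998, plus strand, GRCm38.p6). Capitals mark CACGTG, the E-box, and CCAAT, the CCAAT box, both searched on both strands, CACGTG reading the same on each.
Apex1 promoter: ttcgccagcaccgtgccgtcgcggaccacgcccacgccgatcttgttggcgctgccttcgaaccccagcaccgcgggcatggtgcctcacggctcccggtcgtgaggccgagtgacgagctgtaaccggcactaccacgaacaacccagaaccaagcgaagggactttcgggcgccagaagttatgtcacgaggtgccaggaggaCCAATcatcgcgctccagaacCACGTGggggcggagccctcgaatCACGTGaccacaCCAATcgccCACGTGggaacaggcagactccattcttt
CACGTG occurred 3 times, with its first base at -24, 0 and 21 from the start counted as 0, and CCAAT occurred at -45 and 12. Of 32851 RefSeq windows of this length, 7.15% held CACGTG at least 1 time, and 29 windows (0.0883%) held it at least 3 times. CCAAT was in 37.4% of windows. Of the 7 genes, 5 had a window. Apex2 and Exo1 were not among them. CACGTG was in none of the windows of Ung, Msh6, Pms2 and Trp53bp1. Such a match is a description of letters and not a binding site.

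Apex2, at chrX:150519519-150589868 on the minus strand, was among the lowest of the genes. At rest and after LPS it had 177 and 257 counts in ΔleftPAL, and 169 and 295 in ΔIRIS cells, or 7.25, 9.54, 5.81 and 10.1 CPM. Both LPS libraries were above both resting libraries, by 1.32-fold in ΔleftPAL (log2 ratio 0.40, 0.11 to 0.68) and 1.73-fold in ΔIRIS cells (0.79, 0.51 to 1.07). The fitted change of 0.59 (SE 0.23) did not pass edgeR's quasi-likelihood test after Benjamini-Hochberg adjustment (adjusted p = 0.0644, unadjusted p = 0.0432), nor did it under any of the 8 alternatives (adjusted p from 0.0533 to 0.312). The transcripts differed. Apex2-201, which codes for 516 residues and ends in the near last exon, had 53.8 and 131.4 estimated counts in ΔleftPAL and 46.8 and 144.4 in ΔIRIS cells, with LPS log2 ratios of 1.27 and 1.77. Apex2-203, with the same number of codons and a last exon that runs further, had 61.1 and 54.1, and 69.6 and 76.8. Apex2-205, with 260 codons and a distant last exon, had 84.9 and 64.5, and 87.0 and 88.6. Against the kallisto library sizes, the LPS log2 ratios of these longer transcripts were -0.20 and -0.42 in ΔleftPAL and 0.29 and 0.17 in ΔIRIS cells, so they did not move one way, although both were lower after LPS in TPM. The share of Apex2-201 in the TPM of the 3 transcripts was 45.5% and 71.7% in ΔleftPAL and 40.5% and 66.7% in ΔIRIS cells. On the opposite strand, 1 exon of Apex2 overlaps Alas2, the haem synthesis enzyme of erythroid cells, which had 14660 and 15108 counts at rest and 16 and 45 after LPS. Its part in the Apex2 counts was not tested.

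Msh6, Pms2 and Exo1 act on the mismatch branch, and all 3 rose, in unlike measure. Msh6 encodes the subunit that binds the mismatched base and lies at chr17:87975050-87990883 on the plus strand. ΔleftPAL cells had 1253 counts of it at rest and 3714 after LPS, and ΔIRIS cells had 1765 and 4073, or 51.3, 137.9, 60.7 and 139.0 CPM. As for Ung, the LPS libraries were nearly level and the resting ones less so. The LPS log2 ratio was 1.43 (1.33 to 1.52, 2.69-fold) in ΔleftPAL and 1.19 (1.11 to 1.28, 2.29-fold) in ΔIRIS cells, and the fitted change was 1.31 (SE 0.14, edgeR's quasi-likelihood test, Benjamini-Hochberg adjusted p = 0.000809). The kallisto table holds 1 transcript for the gene. Its end touches Fbxo11 on the opposite strand.

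The Msh6 window (chr17:87974800-87975099, plus strand, GRCm38.p6) was the only one of the 5 with an E2F-type match. The letters searched were TTTGGCGC, TTTGCCGC, TTTCGCGC and TTTCCCGC on both strands, and capitals mark TTTCCCGC and the reverse complement of CCAAT.
Msh6 promoter: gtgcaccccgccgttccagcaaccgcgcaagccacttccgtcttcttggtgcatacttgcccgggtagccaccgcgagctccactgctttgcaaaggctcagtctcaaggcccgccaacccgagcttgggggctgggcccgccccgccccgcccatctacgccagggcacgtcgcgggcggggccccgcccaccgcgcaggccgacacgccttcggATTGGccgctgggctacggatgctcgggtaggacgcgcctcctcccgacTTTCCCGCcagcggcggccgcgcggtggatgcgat
TTTCCCGC began at 15 from the start, inside the transcribed part. It was in 1.07% of all windows, and any of the 4 E2F-type sequences was in 2.26%. The Pms2 window held CCAAT 3 times, as did 3.37% of windows at least, and those of Ung and Trp53bp1 held none of the motifs. The Ung window (chr5:114130185-114130484) does not cover the start of Ung-202 at chr5:114130926. An absent match says only that these letters are not in the window.

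Pms2 encodes the subunit that nicks the strand after mismatch recognition. Its row in the table runs over chr5:143909964-143937309 on the plus strand and so takes in exons shared with Gm42421 and Rsph10b on the same strand, the latter with 8 to 20 counts. Pms2 went from 698 counts at rest to 1197 after LPS in ΔleftPAL cells, and from 881 to 1424 in ΔIRIS cells, or 28.6, 44.4, 30.3 and 48.6 CPM. The LPS log2 ratio was 0.64 (0.50 to 0.77, 1.55-fold) in ΔleftPAL and 0.68 (0.56 to 0.80, 1.60-fold) in ΔIRIS cells. The fitted change was 0.66 (SE 0.12, edgeR's quasi-likelihood test, Benjamini-Hochberg adjusted p = 0.00643). This was the smallest change among the genes that passed. The transcripts of the gene did not move together. Pms2-209, the transcript that codes for the full protein of 859 residues, had 111.6 and 376.5 estimated counts in ΔleftPAL and 173.9 and 459.9 in ΔIRIS cells, 3.32-fold and 2.93-fold higher after LPS. Pms2-207, annotated as retaining an intron, had 199.3 and 149.0, and 262.5 and 188.5, or 0.74-fold and 0.80-fold the resting level. Msh6 and Pms2 were near each other in TPM at rest, with ratios of 0.948 in ΔleftPAL and 0.965 in ΔIRIS cells. After LPS, Msh6 stood 1.59-fold and 1.45-fold above Pms2. This nearness holds for TPM. In FPKM, Msh6 had 12.1 and 14.3 at rest and 32.4 and 32.7 after LPS, against 3.39 and 3.59, and 5.26 and 5.75, for Pms2.

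Exo1, the exonuclease that removes the nicked strand, had the largest LPS change of the 7 genes. It lies at chr1:175880778-175911396 on the plus strand. Resting ΔleftPAL cells had 101 counts of Exo1 and those activated with LPS had 1438, whereas ΔIRIS cells had 110 and 1891, or 4.14, 53.4, 3.78 and 64.5 CPM. The LPS libraries stood far above the resting ones. The resting libraries were nearly level in CPM but not in TPM, with 1.80 in ΔleftPAL and 3.04 in ΔIRIS cells. Taken by itself, Exo1-201 went the other way at rest, with 1.19 TPM in ΔleftPAL and 0.94 TPM in ΔIRIS cells. Part of the ΔIRIS sum came from short transcripts with under 3 estimated counts each, such as Exo1-202 (2.94) and Exo1-209 (2.57). The LPS log2 ratio was 3.69 (3.40 to 4.00, 12.9-fold) in ΔleftPAL and 4.09 (3.81 to 4.38, 17.1-fold) in ΔIRIS cells. The fitted change was 3.89 (SE 0.18, 14.8-fold, edgeR's quasi-likelihood test, Benjamini-Hochberg adjusted p = 0.000158), and 0.54% of the tested genes had a higher one. The size differed between the tables. The kallisto table uses a transcript of 7796 bases for Exo1-201, against 5506 bases of merged exons in the gene table, and its estimates for the gene were 185.7 and 1521 in ΔleftPAL and 194.4 and 2037 in ΔIRIS cells. Of these, Exo1-201 held 177.1 and 170.2 at rest and 1069 and 1419 after LPS. With kallisto estimated counts, the fitted change was 3.28. In TPM, the LPS log2 ratio was 4.38 in ΔleftPAL and 3.96 in ΔIRIS cells, so the order of the genotypes was reversed. The part of the gene model in these values was not tested. An snRNA gene inside Exo1, Gm23805, had 0 to 2 counts.

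Trp53bp1, the shield of broken ends, stood apart from the others, with lower levels in both LPS libraries than in both resting ones. It lies at chr2:121193281-121271407 on the minus strand, with Tubgcp4 overlapping 2 of its exons on the other strand. Counts went from 1375 at rest to 1256 after LPS in ΔleftPAL cells, and from 1481 to 1260 in ΔIRIS cells, or 56.3, 46.6, 50.9 and 43.0 CPM. The differences are small. The LPS log2 ratio was -0.27 (-0.38 to -0.16, 1.21-fold lower) in ΔleftPAL and -0.24 (-0.35 to -0.14, 1.19-fold lower) in ΔIRIS cells. The fitted change of -0.26 (SE 0.12) did not pass edgeR's quasi-likelihood test (Benjamini-Hochberg adjusted p = 0.108), and its size ranged from -0.40 to -0.09 over the alternatives with no call in any. The transcript with the longest coding sequence, Trp53bp1-202 with 1969 codons, had 589.7 and 596.2 estimated counts in ΔleftPAL and 662.0 and 563.5 in ΔIRIS cells. The other long coding form, Trp53bp1-201 with 1919 codons, was scarcer and went the other way, with 37.6 and 51.7 in ΔleftPAL (1.35-fold) and 49.9 and 162.6 in ΔIRIS cells (3.61-fold). Its share in the TPM of both forms was 6.12% and 8.15% in ΔleftPAL and 7.16% and 22.8% in ΔIRIS cells. Trp53bp1-208, a coding transcript annotated in part, was higher than Trp53bp1-202 in TPM in each library, with 4.77 and 3.86 TPM in ΔleftPAL and 3.75 and 2.73 TPM in ΔIRIS cells at rest and after LPS. Trp53bp1-216, annotated for nonsense-mediated decay, had 344.6 and 238.7 estimated counts in ΔleftPAL and 391.0 and 233.0 in ΔIRIS cells, or 0.68-fold and 0.66-fold the resting level. Exo1, which resects ends, and Trp53bp1, which shields them, changed places in TPM. Their ratio was 0.0716 and 0.144 at rest and 2.18 and 3.14 after LPS. Most of the Exo1 TPM after LPS lay on transcripts shorter than Exo1-201.

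**Figure D3:**
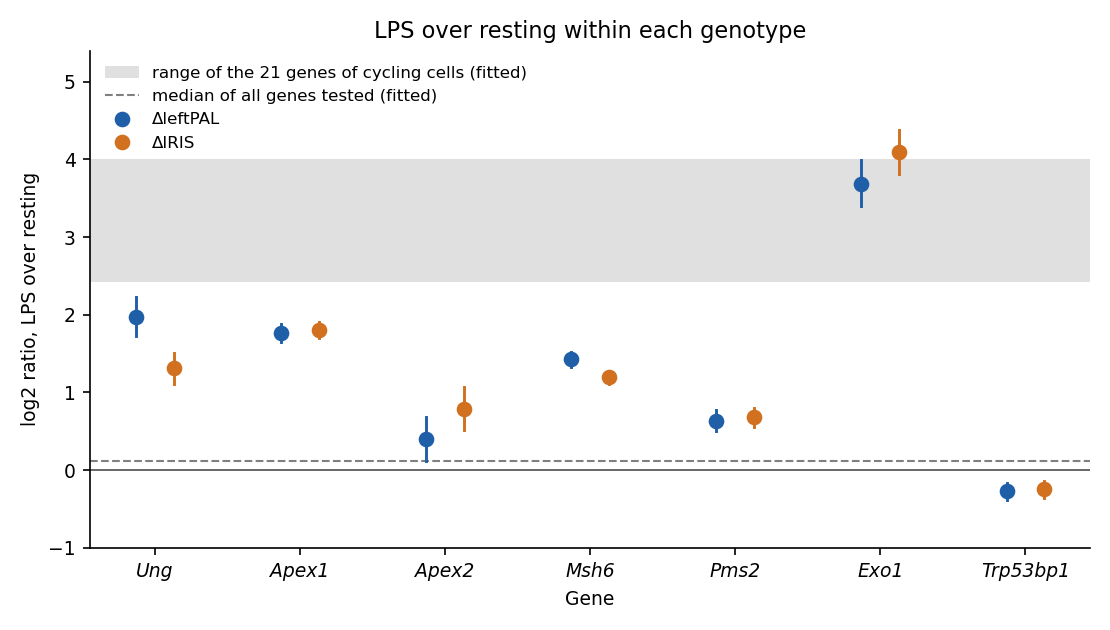
The log2 ratio of LPS over resting for each gene in ΔleftPAL (blue) and ΔIRIS (orange) cells, with bars for the 95% counting interval, the dashed line for the median of all genes tested (0.12) and the grey band for the range of 21 genes of cycling cells (2.42 to 4.01). Exo1 lies in the band in ΔleftPAL (3.69) and just above it in ΔIRIS cells (4.09), the other 6 genes lie below it, and Trp53bp1 lies below 0 in both genotypes.

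Of the 7 genes, 5 (Ung, Apex1, Msh6, Pms2 and Exo1) rose after LPS and 0 fell by edgeR's quasi-likelihood test at an adjusted p under 0.05. Of all 11286 genes tested, 36.4% rose and 27.9% fell, so a rise was common in these cells. The median fitted change was 1.31 over the 7 genes and 0.12 over all genes tested. At least 2-fold higher in CPM after LPS were 4 of the 7 in ΔleftPAL and 4 in ΔIRIS cells, beside 20.1% and 21.6% of genes tested. These were Ung, Apex1, Msh6 and Exo1 in both. In TPM, the ΔIRIS log2 ratios of Ung (0.99) and Msh6 (0.85) were under 2-fold. The 5 calls were kept under each of the 8 alternatives of scaling, filter, test and table.

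Between the genotypes, none of the 7 genes was called. The fitted differences of ΔIRIS minus ΔleftPAL ran from -0.13 (SE 0.12) for Trp53bp1 to 0.28 (SE 0.21) for Ung, with adjusted p from 0.753 to 0.913 by edgeR's quasi-likelihood test with Benjamini-Hochberg adjustment, and 0 of the 7 had an unadjusted p under 0.05. Over all genes, edgeR called 1 (0.00886%), Gm11942, named after its value was seen, and 792 had an unadjusted p under 0.05. DESeq2's Wald test called 0 of the 7 and 34 (0.301%) of all genes tested. By size, 0 of the 7 genes were 2-fold apart between the genotypes in either condition, beside 2.85% of tested genes at rest and 1.98% after LPS. The sign of the Apex2 difference (-0.12) depended on the table, being 0.042 with kallisto estimated counts. A p that misses the threshold in this design does not show that the genotypes were alike.

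Within a condition, the widest gap in gene counts was that of Ung at rest, whereas in TPM Exo1 at rest (0.76) was wider than Ung (0.47). Resting ΔIRIS cells had 1.55-fold the level of resting ΔleftPAL cells (log2 ratio 0.64, counting interval 0.36 to 0.92), and after LPS the log2 ratio was -0.03 (-0.18 to 0.12). Between the resting libraries, the myeloid markers differed in the same direction (288.4 CPM in ΔleftPAL and 385.6 CPM in ΔIRIS cells), and the germinal-centre markers (81.6 and 48.3 CPM) and erythroid markers (3.83% and 2.63% of counts) in the other. Their part in this gap was not tested. Msh6 had the same form at a smaller size, with 0.24 (0.14 to 0.35) at rest and 0.01 (-0.05 to 0.08) after LPS. Apex2 went the other way, with -0.32 (-0.63 to -0.01) at rest and 0.08 (-0.17 to 0.32) after LPS. Exo1 differed after LPS, by 0.27 (0.17 to 0.37), and its resting value of -0.13 (-0.53 to 0.28) rests on 101 and 110 counts and turned positive in TPM. That TPM value rests in part on transcripts with under 3 estimated counts each. Apex1, Pms2 and Trp53bp1 each had the same sign in both conditions. Apex1 gave 0.12 and 0.16, Pms2 gave 0.08 and 0.13, and Trp53bp1 gave -0.14 and -0.12, at rest and after LPS.

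In gene counts, the LPS change differed between the genotypes beyond counting error for Ung and Msh6, and for Apex2 at the edge of its interval. As ΔIRIS minus ΔleftPAL on the log2 scale, the difference was -0.66 (counting interval -0.97 to -0.35) for Ung, -0.23 (-0.35 to -0.11) for Msh6 and 0.40 (0.01 to 0.78) for Apex2. The Apex2 value was 0.36 with TMM without immunoglobulin genes, 0.29 with kallisto estimated counts and 0.066 in TPM. For Exo1 it was 0.40, with an interval from -0.00052 to 0.80, and -0.42 in TPM. For Apex1, Pms2 and Trp53bp1 it was 0.04, 0.04 and 0.03, with intervals that include 0. These values have no replicate check, and the same differences are the spread against which the LPS term was tested.

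**Figure D4:**
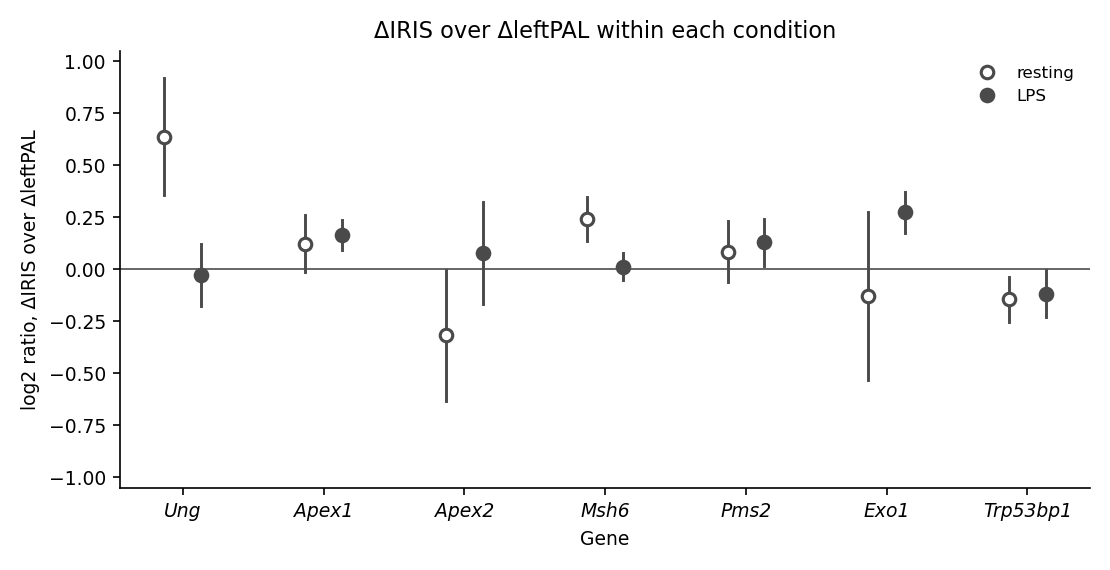
The log2 ratio of ΔIRIS over ΔleftPAL for each gene at rest (open points) and after LPS (filled points), with bars for the 95% counting interval. Ung at rest (0.64) lies furthest from 0, and its LPS value (-0.03) lies at 0.

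The neighbours of these genes in repair were read from 8 lists, each described by counts of calls in the same additive fit, to be read beside the 36.4% of all genes tested that rose and the 27.9% that fell. In base excision repair, beside Ung, Apex1 and Apex2, 7 of 16 tested genes rose, 2 fell and 7 did not pass, with a median of 0.31, and the share that rose was near that of all genes. Neil3 (2.44) and Fen1 (2.17), the flap endonuclease also used in replication, rose most, and Neil1, another base glycosylase, fell by 1.69 on the log2 scale. Among other glycosylases that act on uracil or thymine, Tdg had 347 and 854 counts in ΔleftPAL and 577 and 1291 in ΔIRIS cells and rose by 1.15 (SE 0.13, adjusted p = 0.00117 by edgeR's quasi-likelihood test). Smug1, which can replace UNG on uracil, had 132 and 95, and 114 and 109, with a fitted value of -0.35 (adjusted p = 0.323). Mbd4 had 709 and 755, and 645 and 875, with a fitted value of 0.19 (adjusted p = 0.363). These glycosylases, and the genes of the mismatch list that are named without being its largest changes, were chosen after their values were seen.

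In mismatch repair and its resynthesis factors, 14 of 17 rose and 0 fell, with a median of 1.33, close to that of Msh6. The largest changes were those of Lig1 (3.12), the replicative ligase, and of the clamp loader subunits Rfc4 (2.88) and Rfc5 (2.36). The members that did not pass were Msh3, Mlh3 and Msh5, with values of -0.06, -0.18 and 0.19. Those that rose were Pms1 (0.55) and the genes of the ligase, the clamp and its loader, RPA and polymerase delta. In break signalling and end protection, the list nearest to Trp53bp1, 9 of 16 rose and 2 fell, with a median of 0.76. H2afx (3.18), whose histone marks breaks, Paxip1 (1.51) and Rif1 (1.18), the effector that 53BP1 recruits, rose most.

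In end joining, 4 of 10 rose and 2 fell, shares near those of all genes, with a median of 0.25. Polq (2.69), the polymerase of alternative joining, Xrcc6 (1.69) and Xrcc5 (0.68), the Ku subunits, and Lig4 (1.12) rose. Dclre1c, which encodes Artemis, fell by 1.27 and Polm fell by 0.92, whereas Xrcc4 (-0.14), Nhej1 (0.37), Prkdc (-0.19) and Poll (0.14) did not pass. Among the error-prone polymerases, Polh (1.70), whose polymerase fills gaps of the mismatch branch, and Polk (0.99) rose, Poli fell by 1.27, and Rev1 (0.31) and Rev3l (-0.28) did not pass. Poln was under the minimum, with 29 to 41 counts. Of 16 deaminase cofactors, 10 rose and 1 fell, with a median of 0.46, led by Hsp90ab1 (1.59), Ywhae (1.54) and Trim28 (1.36).

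Homologous recombination and the genes of cycling cells lay higher. In the former, 7 of 9 rose and 0 fell, with a median of 2.19. Rad54l (3.66), Rad54b (3.26), Rad51b (2.75), Xrcc3 (2.28), Blm (2.19), Xrcc2 (1.53) and Rad51c (1.31) rose, and Rad51d (-0.22) and Rad52 (-0.49) did not pass. All 21 genes of cycling cells rose, with a median of 3.17 and a range from 2.42 to 4.01, led by Ccnb1 (4.01), Rrm2 (3.94) and Tyms (3.85). Exo1 lay within that range, and Ung, Apex1, Msh6, Pms2, Apex2 and Trp53bp1 lay below it. The part of cell cycling in the changes of the 7 genes was not tested. By genotype, edgeR's quasi-likelihood test called 0 genes of any list, and 0 to 2 genes a list had an unadjusted p under 0.05.

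**Figure D5:**
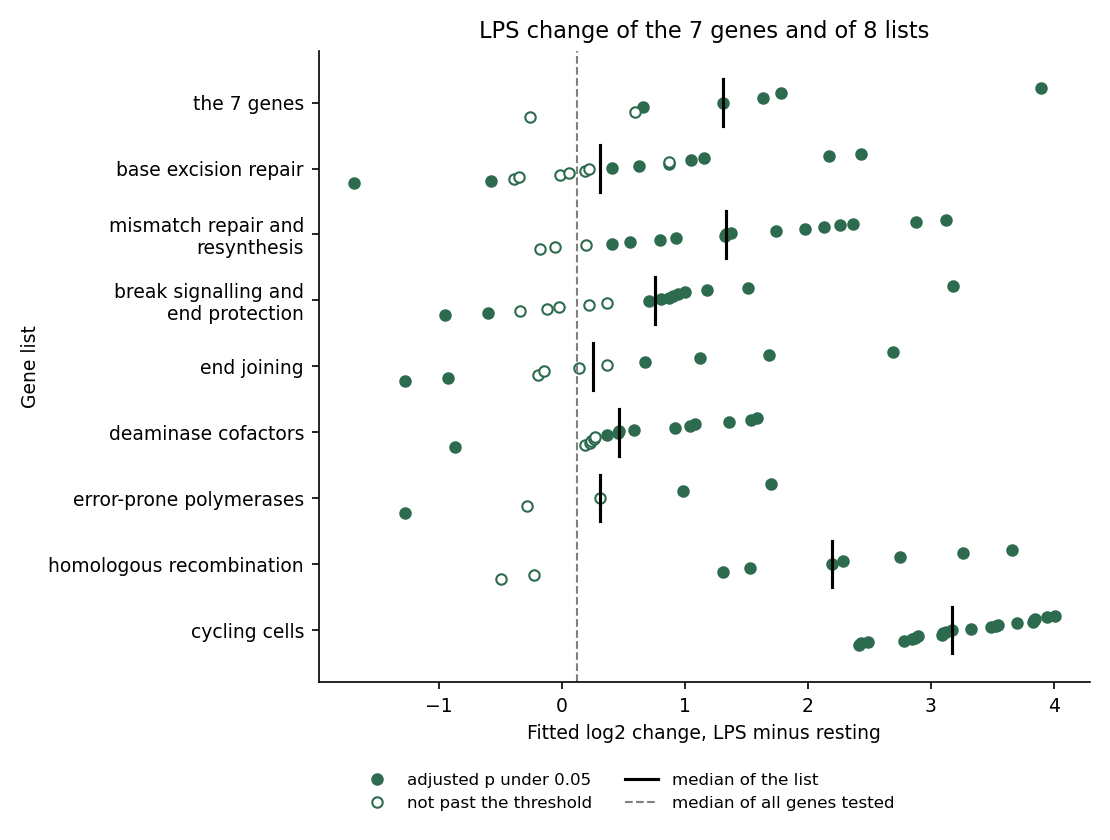
Fitted log2 change of LPS minus resting for each tested gene of the 7 and of 8 lists of repair and cell-cycle genes, filled where the adjusted p was under 0.05, with a bar at each list's median and a dashed line at the median of all genes tested (0.12). The medians run from 0.25 for end joining to 3.17 for cycling cells, and that of the 7 genes is 1.31.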

How the data were processed

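The authors prepared ribosome-depleted, stranded total RNA libraries, sequenced pairs of 150 nt and mapped them with STAR 2.4.0a to mm10 with Ensembl 77. They deposited fragment counts per gene name, unnormalized, made by featureCounts (Subread 1.4.6-p1) with strand used and multi-mapping reads kept, so near-identical copies can share reads. They also deposited kallisto 0.42.3 estimated counts, unnormalized, and TPM values for 88198 transcripts, as the submitters' processing notes name the tools. A row without a gene name (0.00876 to 0.0264% of counts) was left out of library sizes and tests. The number of table columns not tied to a sample was 0.

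Gene counts had median ratios of 0.985 to 0.988 to kallisto estimated counts. They were scaled by TMM (edgeR 4.0.16, R 4.3.3). Genes averaging 50 counts or more were tested by edgeR's quasi-likelihood test in the additive model described, with 5.35 total degrees of freedom, at an adjusted p of 0.05. Every group had 1 library. Ratios and intervals were computed in Python 3.11.15 with scipy 1.17.1, and 2-fold counts used CPM plus a prior of 0.5, which understates changes of low genes. Alternatives were DESeq2 1.42.0 size factors and its Wald test, total counts, TMM without immunoglobulin genes, minimum means of 10 and 200 counts or none, and kallisto estimated counts, rounded. On counts simulated for the LPS comparison over 11286 genes, 100 of 100 genes changed 2-fold and 100 of 100 changed 4-fold were called, as were 10 unchanged genes. The simulated counts varied less between libraries than the data, whose fitted biological coefficient of variation was 0.158. They held no difference between the genotypes, and most genes were unchanged. This recovery is therefore not the power of the test on these data.

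The 7 genes and the lists were chosen with earlier results of these data known. Genes named are the 7, at most 3 per list by size of change among those called, and all of lists of 10 or fewer, besides Gm11942, Tdg, Smug1, Mbd4, Msh3, Mlh3, Msh5 and Pms1, chosen after their values were seen, and genes that overlap the 7. GENCODE M21 gave positions and transcript sequences, RefSeq (GRCm38.p6) the promoters. Protein sequences were not used, and the deaminase was not analysed here. In addition, 1 gene planned for a list is not reported here.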

Additional observations from a re-analysis of the deposited data

Results flagged for a closer look

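In gene counts, ΔIRIS over ΔleftPAL had opposite signs at rest and after LPS for Ung, Apex2 and Exo1. The median log2 ratio over all genes tested was 0.00019 at rest and 0.026 after LPS, so both signs were common. The log2 ratios were 0.64 and -0.028 for Ung, -0.32 and 0.077 for Apex2, and -0.13 and 0.27 for Exo1. With 1 library in each group, every library of a condition moved the same way by construction, and the difference was not tested. Counting error alone covered the value after LPS for Ung and Apex2 and the resting value for Exo1, so that none of the 3 genes had both signs outside its counting intervals. The opposite signs were lost for Ung with kallisto estimated counts (0.68 and 0.049) and for Exo1 in TPM (0.76 and 0.34). The resting Exo1 value in TPM rests in part on transcripts with under 3 estimated counts each.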

How the results depend on the processing

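The LPS calls of Ung, Apex1, Msh6, Pms2 and Exo1 and the missing calls of Apex2 and Trp53bp1 stood on the same side of the threshold in each of the 8 alternatives, and the counts of genes higher (3155 to 4529) and lower (2426 to 4432) on LPS stayed within 1.5 times the reported ones. Fitted LPS changes ranged from 1.49 to 1.73 for Ung, 1.64 to 1.92 for Apex1, 1.17 to 1.37 for Msh6, 0.52 to 0.80 for Pms2, 3.28 to 3.89 for Exo1 and 0.45 to 0.60 for Apex2. The median over all genes, 0.12 as reported, was 0.06 with total counts, -0.02 with DESeq2's Wald test, 0.15 with kallisto estimated counts and -0.11 with no minimum. Genes called between the genotypes numbered 45 with no minimum, 34 with DESeq2's Wald test and 18 with kallisto estimated counts, instead of 1, and none of the 7 was among them. The cause was not tested. The genotype value of Apex2 changed sign with kallisto estimated counts, to 0.042. Genes 2-fold apart between the genotypes fell to 128 at rest and 83 after LPS with a prior of 5 CPM, and to 182 and 128 with a minimum mean of 200 counts, where fewer genes were tested. With TPM, LPS ratios of most of the 7 moved by more than counting error, to 1.52 and 0.99 for Ung, 4.38 in ΔleftPAL for Exo1 and -0.55 and -0.48 for Trp53bp1. Genotype is a term of the reported fit, which thus compares resting and LPS libraries within genotypes, and with 1 library per group no further replicate block could be fitted. Of the 7 genes, Exo1 had the fewest counts at rest (101 and 110) and Apex2 the fewest after LPS (257 and 295).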
